A study of Mus musculus with 12 samples.

Results

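Livers of mice that drank zinc water before an injection of dexamethasone (Dex) were compared with livers of mice that drank plain water before the same injection, so that the comparison gives the effect of zinc in the presence of a glucocorticoid. The 6 libraries labelled zinc water plus Dex or plain water plus Dex, 3 of each, were taken from the 12 libraries of the series. A gene entered when it had at least 10 counts in at least 3 of the 12 libraries, which held for 13255 of 54838 genes. The mice were female adult C57BL/6J animals. They received normal drinking water or 25 mM ZnSO4 for 7 days and then 200 µg Dex, given intraperitoneally in PBS, and the liver was taken 2 h later. Both groups, called water-Dex and zinc-Dex, therefore carried the same Dex injection, and the labels set them apart by the drinking water alone. The 6 remaining mice drank the same waters and received PBS only (water-PBS and zinc-PBS, 3 each). They served to ask whether zinc had the same effect without Dex.

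Zinc that enters a cell is sensed by the transcription factor MTF1, which binds metal response elements and turns on metallothioneins, the small proteins that buffer zinc, and the exporter ZnT1, encoded by *Slc30a1*. Importers of the ZIP family and exporters of the ZnT family move the metal across membranes. Glucocorticoids act on the liver through the glucocorticoid receptor (GR), which switches on genes of amino acid breakdown and glucose production and also induces metallothioneins.

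MTF1 recognises a core that reads TGCACNC or TGCGCNC on either strand, and the stretches around such a core are shown for the metal genes that rose, with the core in capitals. A stretch around a heat shock element (GAANNTTC or TTCNNGAA) and one around a sterol regulatory element (TCACNCCAC, on either strand) are shown for 1 gene each of groups described further on, with that element in capitals. They were read from the 250 bases before the RefSeq gene start on GRCm38.p6, 5′ to 3′ along the strand of the gene.
*Mt1*, chr8:94179056-94179082, plus strand: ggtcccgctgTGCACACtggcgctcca
*Slc30a1*, chr1:191906728-191906754, plus strand: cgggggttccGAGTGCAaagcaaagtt
*Hsph1*, chr5:149636352-149636379, minus strand: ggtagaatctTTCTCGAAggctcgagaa
*Hmgcs1*, chr13:119690204-119690232, plus strand: cgtcaccgtcTCACCCCACttcccaggtc
The core in *Slc30a1* reads on the opposite strand. The metal response core was found in 23.8% of 27025 genes with such a window, the heat shock element in 14.6% and the sterol element in 1.23%, and a match is a description of these letters and not evidence of binding. A window was at hand for 9908 of the 13254 gene symbols tested. Among these 9908 the shares were 33.6%, 12.25% and 1.35%, in the same order. The heat shock and sterol elements were chosen after the values were seen. Among listed genes with a window, 7 of 9 heat shock genes held the heat shock element. The sterol element was in 1 of 12 cholesterol synthesis genes, *Hmgcs1*, and not in the windows of *Lss*, *Dhcr7* and *Msmo1*.

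The total count lay between 10942890 and 12303527 in the 6 Dex libraries. Levels are given as normalized read counts, the counts divided by the size factor of DESeq2, for replicates 1, 2 and 3 in that order or as mean ± SD with n = 3 mice. A log2 fold change is that of zinc-Dex over water-Dex unless another pair is named. "Rose" and "fell" are used of genes with a DESeq2 adjusted p under 0.05 over all genes tested, and "called" of those that in addition had an absolute log2 fold change above 0.8. In a principal component analysis of the 500 genes with the highest variance, the first axis held 37.9% of it. On this axis the water-Dex mice scored -10.5, -11.9 and -6.09 and the zinc-Dex mice 20.1, -0.056 and 8.37. Zinc-Dex replicate 1 thus stood farthest from the water-Dex mice and zinc-Dex replicate 2 nearest to them. All 8 hepatocyte markers listed were tested. The summed levels of hepatocyte, Kupffer cell, endothelial, stellate, neutrophil, red blood cell and gut markers overlapped between the groups, and 5 of 8 pancreas markers were at 0 in each of these libraries. Of the 62 called genes, 22 overlapped an annotated gene on the opposite strand, and since the strand setting of the counting is not given in the sources used here their own levels are uncertain. Among the genes described in the text this concerns *Slc30a1*, *Slc30a10*, *Slc11a2*, *Mt2*, *Mtf1*, *Tnfrsf19*, *Adamts2*, *Cyp2c55*, *Smoc2*, *Rgs12*, *Synj2*, *Tcf24*, *Arntl*, *Npas2*, *Tef*, *Nr1d1*, *Rora*, *Sult5a1*, *Acacb*, *Lss*, *Hmgcs1*, *Usp18*, *Ripk1*, *Slc25a25*, *Phlda1*, *Chordc1*, *Abcg5*, *Abcg8*, *Npc1* and *Usp50*.

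Zinc changed a small set of genes in the Dex-injected liver. Metal genes, a desmosomal cadherin, a proton pump subunit and an aquaporin were among the increases, and a zinc importer, major urinary proteins, clock activators and heat shock chaperones among the decreases. In all, 62 of 13255 genes (0.468%) were called, 38 higher (0.287%) and 24 lower (0.181%). By the adjusted p alone, 115 genes rose (0.868%) and 60 fell (0.453%), 175 in all (1.32%), and the unadjusted p was under 0.05 for 10.1% of the genes tested. Of the 62 genes, 57 are protein-coding, 38 differed by more than 2-fold and 3 by more than 4-fold, and the median of the absolute log2 fold change was 1.07. The 3 zinc-Dex mice lay on one side of the 3 water-Dex mice for 60 of the 62, against 10.3% of all genes with zinc higher and 9.41% with zinc lower. Among the 38 genes called higher, zinc-Dex replicate 1 was the highest zinc mouse in 26, replicate 3 in 9 and replicate 2 in 3.

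The number of calls depended on single mice. It was 26 (13 higher and 13 lower) without zinc-Dex replicate 1 and 108 (64 and 44) without zinc-Dex replicate 2. It was 34 (21 and 13) without water-Dex replicate 1 and 36 (22 and 14) without water-Dex replicate 2. The quasi-likelihood test of edgeR called 21 genes (11 and 10), 20 of them also called by DESeq2. Genes described below that missed the edgeR adjusted p included *Tnfrsf19* (0.053), *Aqp8* (0.0813), *Pdzk1ip1* (0.174), *Adam11* (0.0584), *Smoc2* (0.149), *Rgs12* (0.0622) and *Fam198a* (0.177). So did *Nr1d1* (0.0934), *Acacb* (0.0612), *Cpt1a* (0.13), *Il1rn* (0.127), *Cyp2c29* (0.154), *Mup9* (0.131), *Sult5a1* (0.0622), *Tubb2a* (0.0684), *Cry1* (0.132) and *Npas2* (0.151). With the 6 Dex libraries fitted alone, DESeq2 lost, among others, *Aqp8* (adjusted p 0.107), *Fam198a* (0.0876), *Cyp2c29* (0.108) and *Mup9* (0.0618). Called in all 14 alternative fits were *Dsg1c*, *Atp6v0d2*, *Adamts2*, *Slc39a4*, *Tcf24*, *Mup18*, *Mup13* and the pseudogene *Mup-ps13*, 8 genes in all.

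The zinc-handling genes were examined first. *Slc39a4* (chr15:76612383-76617384 on mm10), which encodes the importer ZIP4, stood at 549.9, 587 and 734 in the water-Dex mice and at 186, 211 and 245 in the zinc-Dex mice. Each zinc mouse was below each water mouse, and the level fell 2.91-fold (log2 fold change -1.54, SE 0.16, DESeq2 adjusted p 6.7e-19). *Slc30a1* (chr1:191906767-191913247), the ZnT1 gene whose promoter stretch is printed above, stood at 239, 251 and 229.6 on water and at 446, 426 and 396 on zinc. The groups were apart by far more than their spread, and the gene rose (log2 fold change 0.82, SE 0.14, DESeq2 adjusted p 3.7e-06). *Slc30a10*, which encodes a manganese exporter of the same family, went the other way, from 596, 561 and 747 to 378, 424 and 297, and fell (log2 fold change -0.80, SE 0.16, DESeq2 adjusted p 0.000459), just under the fold threshold. *Slc11a2*, the gene of the divalent metal transporter DMT1, fell from 298 ± 23.4 to 192 ± 19.8 (log2 fold change -0.64, SE 0.14, DESeq2 adjusted p 0.00207). These 4 genes kept an adjusted p under 0.05 in each of the 14 alternative fits. The log2 fold change of *Slc30a1* dropped below the threshold of 0.8 without water-Dex replicate 3 (log2 0.79) and without zinc-Dex replicate 1 (log2 0.78).

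The other members of these families were not past the threshold. Of 12 ZIP genes tested of 14 listed, *Slc39a4* alone fell and 0 rose, and the median log2 fold change was -0.068 against 0.0049 over all genes. The largest estimate among the others was 0.71. Of 7 ZnT genes tested of 10 listed, 1 rose and 1 fell, and 6 had a log2 fold change below 0. Of 20 genes of iron and copper handling 1 fell, *Slc11a2*.

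*Mt1*, which encodes the main hepatic metallothionein, stood at 7587, 7590.3 and 7489 in water-Dex and at 15103, 13303 and 12372 in zinc-Dex. The water mice were almost equal, and each zinc mouse was above them. The gene was called at a 1.80-fold higher level (log2 fold change 0.85, SE 0.22, DESeq2 adjusted p 0.0183), but it was lost without any single one of the 6 Dex libraries, with adjusted p from 0.0706 to 0.456, and in edgeR (0.13). *Mt2* stood at 2438, 2234 and 2518 on water and 4249, 3886 and 3497 on zinc. The groups did not overlap here either, but the difference did not pass the test (log2 fold change 0.69, SE 0.34, DESeq2 adjusted p 0.451, 95% interval 0.02 to 1.37). *Mtf1*, the gene of the zinc sensor itself, stood at 273, 256 and 256 on water and 203, 229 and 229.8 on zinc and did not pass it (log2 fold change -0.24, SE 0.12, DESeq2 adjusted p 0.471). With the 6 Dex libraries fitted alone, *Mt1* stayed called, *Mt2* passed the adjusted p but not the fold threshold, and *Mtf1* did not pass. *Mt3* and *Mt4*, the remaining metallothionein genes listed, did not have enough counts to be tested.

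**Figure D1:**
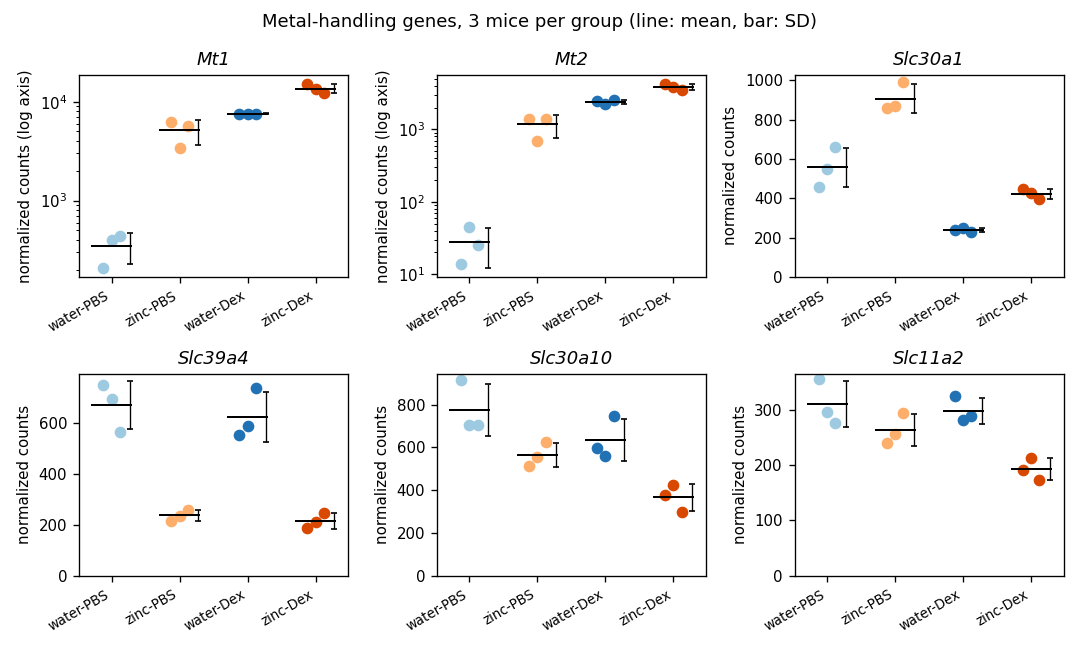
Normalized read counts of 6 metal-handling genes in each of the 12 mice by group, on a log axis for Mt1 and Mt2 and on a linear axis from 0 for the others. Points are mice, the horizontal line is the group mean and the bar the SD (n = 3). Zinc-Dex mice lie above water-Dex mice for Mt1, Mt2 and Slc30a1 and below them for Slc39a4, Slc30a10 and Slc11a2, while the distance between the zinc and water groups for Mt1 and Mt2 is far larger in the PBS-injected mice.

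The PBS-injected mice show where these levels stood without Dex. *Mt1* was at 209.6, 403 and 437 in water-PBS and at 6233, 3437 and 5684 in zinc-PBS, so that the log2 fold change of zinc was 3.87 without Dex and 0.85 with it. All 3 water-Dex mice were above all 3 zinc-PBS mice, and the zinc-Dex mice were the highest of the 4 groups. *Mt2* followed the same order, with 13.7, 44.7 and 25.4 in water-PBS and 1417, 702 and 1395 in zinc-PBS. The difference between the zinc effects was tested as an interaction and was -3.02 for *Mt1* (SE 0.32, DESeq2 adjusted p 4.2e-17) and -4.68 for *Mt2* (SE 0.51, DESeq2 adjusted p 2.8e-16) on the log2 scale. *Slc30a1* was at 459, 551 and 661 in water-PBS and 860.4, 869 and 990.3 in zinc-PBS. Its levels were lower in both Dex groups, while the log2 fold change of zinc was 0.70 without Dex and 0.82 with it. *Slc39a4* fell by a log2 fold change of -1.50 without Dex and -1.54 with it, and the difference between them was -0.04 (SE 0.22, DESeq2 adjusted p 1).

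The 15 largest increases among the called genes whose normalized counts averaged 50 or more and whose groups did not overlap came from many pathways. *Dsg1c*, a desmoglein gene of the cell-to-cell junctions called desmosomes, was at 41.6, 33.0 and 28.7 on water and 118, 118 and 150.0 on zinc. Each zinc mouse was more than 2-fold above each water mouse (log2 fold change 1.90, SE 0.29, DESeq2 adjusted p 7.7e-08). It was the only one of 9 desmosome genes that rose, and 0 fell. *Atp6v0d2*, which encodes a subunit of the vacuolar proton pump, rose from 304, 260.4 and 216 to 708, 503 and 605 (log2 fold change 1.22, SE 0.21, DESeq2 adjusted p 1.4e-05), with no overlap between the groups. Of the 19 pump genes tested it was again the only one that rose. *Adamts2* (chr11:50602084-50807573), the gene of a procollagen peptidase, rose from 89.3, 57.4 and 99.0 to 238, 180.3 and 142 (log2 fold change 1.19, SE 0.23, DESeq2 adjusted p 0.000251). Its lowest zinc mouse stood well above its highest water mouse.

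*Tnfrsf19*, a receptor gene known as a Wnt target, was at 25.4, 29.8 and 32.7 on water and 107, 52.3 and 60.6 on zinc (log2 fold change 1.32, SE 0.28, DESeq2 adjusted p 0.00122). Zinc-Dex replicate 1 was the highest by far, and the call was lost without it (DESeq2 adjusted p 0.0797). *Aqp8*, the gene of a water channel of the bile canaliculus, was at 852, 986 and 1199 and 3558, 1657 and 1734 (log2 fold change 1.19, SE 0.35, DESeq2 adjusted p 0.0436). Again replicate 1 stood apart. The call of *Aqp8* was lost without any of the 3 water-Dex replicates (DESeq2 adjusted p 0.224, 0.208 and 0.0777) and fell under the fold threshold without zinc-Dex replicate 1 (log2 0.74). All 5 aquaporin genes tested of 8 listed had a log2 fold change above 0, with a median of 0.38, but *Aqp8* alone rose. *Pdzk1ip1*, at 37.5, 48.9 and 49.5 and 153, 76.8 and 56.7, rested most on zinc-Dex replicate 1 (log2 fold change 1.07, SE 0.32, DESeq2 adjusted p 0.0492) and had a DESeq2 adjusted p of 0.681 without it. It was also lost without water-Dex replicate 1 (0.233), 2 (0.116) or 3 (0.129).

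Genes of drug and nutrient handling were also among the increases. *Cyp2c55*, a cytochrome P450 gene that is a target of the nuclear receptors CAR and PXR, rose from 119.6 ± 30.2 to 257 ± 66.0 (log2 fold change 1.10, SE 0.26, DESeq2 adjusted p 0.00399). *Gsta2*, which encodes a glutathione transferase, rose from 118, 174 and 208 to 383, 249 and 378 (log2 fold change 1.02, SE 0.22, DESeq2 adjusted p 0.00104), and its call held without each Dex library in turn. *Slc43a1*, a transporter gene for large neutral amino acids, rose from 77.1, 65.9 and 58.4 to 168, 102 and 151 (log2 fold change 1.07, SE 0.24, DESeq2 adjusted p 0.00253). *Sucnr1*, the receptor gene for succinate, was at 121, 82.9 and 72.3 and 219.8, 164 and 157 (log2 0.97), and *Synj2*, a phosphoinositide phosphatase gene, at 184, 288 and 304 and 428, 499.8 and 544 (log2 0.92). The groups of each of these genes did not overlap. Under edgeR the calls of *Cyp2c55* (adjusted p 0.0744), *Gsta2* (0.0529), *Slc43a1* (0.0614) and *Sucnr1* (0.131) were lost, and that of *Synj2* held (0.0407). The call of *Cyp2c55* was lost without water-Dex replicate 1 (DESeq2 adjusted p 0.0528), water-Dex replicate 2 (0.0563) or zinc-Dex replicate 3 (0.0833). That of *Slc43a1* was lost without water-Dex replicate 3 (0.0533) or zinc-Dex replicate 1 (0.0692), that of *Sucnr1* without water-Dex replicate 2 (0.0893), water-Dex replicate 3 (0.156) or zinc-Dex replicate 1 (0.177), and *Synj2* went under the fold threshold without water-Dex replicate 1 (log2 0.73).

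The remaining increases of this set were *Adam11* (log2 fold change 1.07), *Smoc2* (1.06), a matricellular protein gene, *Rgs12* (1.01), a regulator of G protein signalling, and *Fam198a* (0.99). Their levels in single mice ran from 24.3 to 77.2 on water and from 59.0 to 192.6 on zinc. The groups of *Fam198a* nearly touched, since water-Dex replicate 3 stood at 59.4 and zinc-Dex replicate 3 at 59.6. Each was lost without at least 1 library. *Adam11* was lost without water-Dex replicate 3 (DESeq2 adjusted p 0.0607), zinc-Dex replicate 1 (0.0817) or zinc-Dex replicate 3 (0.0534), and *Smoc2* without water-Dex replicates 1, 2 or 3 (0.136, 0.148 and 0.0607) or zinc-Dex replicate 1 (0.367). *Rgs12* was lost without water-Dex replicate 2 (0.136) or zinc-Dex replicates 1 or 3 (0.149 and 0.0945), and *Fam198a* without water-Dex replicates 1 or 2 (0.274 and 0.287) or zinc-Dex replicates 1 or 2 (0.108 and 0.18).

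The summed level of 5 cholangiocyte markers lay between 588 and 815 in water-Dex and between 947 and 1166 in zinc-Dex. Most of it was *Spp1*, which is not specific to these cells, at 655, 526 and 725 on water and 1052, 866 and 871 on zinc (log2 fold change 0.55, SE 0.18, DESeq2 adjusted p 0.123). *Krt19*, a defining keratin of bile ducts, was at 15.2, 9.57 and 16.8 and 13.1, 13.4 and 13.5. The summed level of 8 lymphocyte markers, of which 3 could be tested, lay between 20.2 and 28.7 on water and between 32.3 and 33.7 on zinc. By DESeq2 adjusted p, 0 of the 5 cholangiocyte and 0 of the 3 lymphocyte markers tested passed, edgeR gave 0 as well, and 1 and 0 of them had an unadjusted p under 0.05. With the 6 Dex libraries fitted alone, 1 cholangiocyte marker rose and 0 lymphocyte markers passed the DESeq2 adjusted p. In whole liver, more cells of a type and more RNA per cell cannot be told apart, and the part of these cells in the changes described here was not tested.

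**Figure D2:**
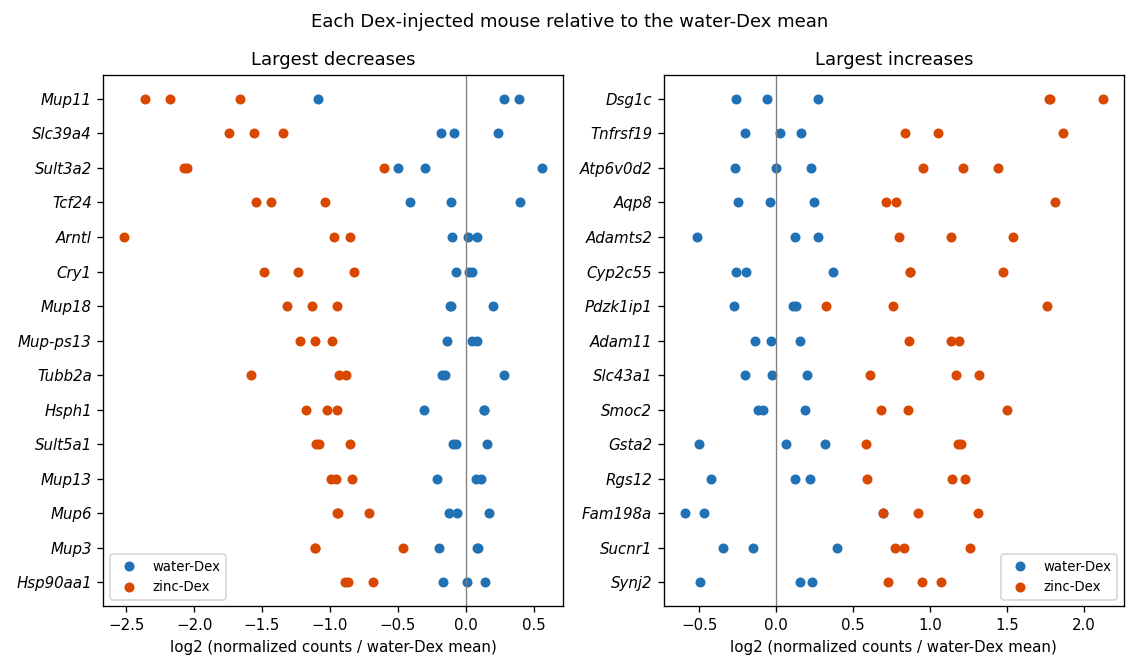
The 15 largest decreases (left) and increases (right) named by the rule, as log2 of the normalized count of each Dex-injected mouse over the water-Dex mean. Blue points are the 3 water-Dex mice and orange points the 3 zinc-Dex mice, and the groups do not overlap for any of the 30 genes, although they nearly touch for Fam198a and Sult3a2. One zinc mouse stands apart from the other two for Tnfrsf19, Aqp8 and Pdzk1ip1 on the right and for Arntl and Sult3a2 on the left, among others.

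Among the decreases the major urinary proteins, small pheromone carriers made by the liver and encoded by a cluster of near-identical genes on chromosome 4, formed the largest group. Of 19 genes tested of 22 listed, 0 rose and 6 fell, 17 had a log2 fold change below 0, and the median was -0.93 against 0.0049 over all genes. The groups did not overlap, with zinc lower, for 11 of the 19, against 9.41% of all genes. *Mup3*, by far the most abundant in this count table, stood at 30734, 30627 and 25180.4 on water and at 13352, 20916 and 13352 on zinc (log2 fold change -0.86, SE 0.17, DESeq2 adjusted p 0.000198). Its highest zinc mouse stayed below its lowest water mouse. *Mup6* was at 1296, 1525 and 1241 and 706, 826 and 700.0 (log2 fold change -0.86, SE 0.13, DESeq2 adjusted p 3.1e-08), and *Mup18* at 304, 381 and 306 and 133, 171 and 151 (log2 fold change -1.12, SE 0.21, DESeq2 adjusted p 0.000112). *Mup13* fell from 101 ± 12.2 to 53.3 ± 3.05 (log2 -0.93, DESeq2 adjusted p 0.00135). The groups of these 3 genes were each apart by more than their range.

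*Mup11* had the largest fall of the family, from 343, 371 and 133 to 89.2, 62.3 and 54.8 (log2 fold change -2.04, SE 0.47, DESeq2 adjusted p 0.00341), although water-Dex replicate 3 was close to the zinc mice. Its call was lost without water-Dex replicate 1 (DESeq2 adjusted p 0.0547) or 2 (0.0633). *Mup9*, named after its values were seen, fell from 51.7, 45.7 and 49.5 to 21.8, 33.4 and 14.4 (log2 fold change -1.09, SE 0.32, DESeq2 adjusted p 0.0499) and was lost without water-Dex replicate 3 (0.196) or zinc-Dex replicate 3 (0.364). DESeq2 gave *Mup9* no adjusted p without water-Dex replicates 1 or 2 or zinc-Dex replicate 1. *Mup3* stayed past the adjusted p but under the fold threshold without zinc-Dex replicate 1 (log2 -0.75) or 3 (log2 -0.75), and *Mup6* without water-Dex replicate 2 (log2 -0.77). *Mup-ps13*, a pseudogene of the cluster, stood at 1299, 1476 and 1518 on water and 613, 723 and 662 on zinc (log2 fold change -1.10, SE 0.14, DESeq2 adjusted p 8.4e-12). *Mup20*, at 436 ± 57.2 and 375 ± 59.4, did not pass (log2 -0.22, SE 0.33), and the 2 members with a log2 fold change above 0 were *Mup2* (0.25) and *Mup21* (0.20). *Mup20*, *Mup2* and *Mup21* were named after their values were seen. Reads that match several genes were left out of the counts, so that the level of each copy rests on the reads that tell it apart, and how the fall is shared between copies is uncertain.

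The Mup genes are known to differ between the sexes, and lists of other sex-biased liver genes were examined beside them. Of 16 female-biased genes 0 rose and 1 fell, and the median log2 fold change was 0.31. Of 10 male-biased genes tested of 12 listed, 0 passed the DESeq2 adjusted p and 0 that of edgeR, with 3 lower at an unadjusted p under 0.05, and the median was -0.31. The female-biased gene that fell with all libraries in the fit was *Sult3a2*, a sulfotransferase gene, at 65.9, 120.1 and 57.4 on water and 19.6, 53.4 and 19.2 on zinc (log2 fold change -1.41, SE 0.39, DESeq2 adjusted p 0.0296). Zinc-Dex replicate 2 was close to the lowest water mouse. Its call was lost without zinc-Dex replicate 1 (0.26) or 3 (0.21) and with the 6 Dex libraries alone (0.352), all DESeq2 adjusted p, and in edgeR (0.154). DESeq2 gave it no adjusted p without water-Dex replicates 1 or 2. *Sult5a1*, another gene of this enzyme class, fell from 208, 178 and 175 to 103, 86.8 and 88.5 (log2 fold change -1.01, SE 0.23, DESeq2 adjusted p 0.00238), with tight groups that did not overlap. Of the 14 sulfotransferases tested of 17 listed, 0 rose and these 2 fell, while the median log2 fold change was 0.32. The log2 fold change was above 0 for 11 of the 14, against 51.0% of all genes. At an unadjusted p under 0.05, 7 were higher and 3 lower, against 10.1% of all genes in both directions together. Without zinc-Dex replicate 2, 4 rose and 3 fell.

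Further decreases were *Tcf24*, which encodes a basic helix-loop-helix transcription factor, from 115, 163 and 93.0 to 45.7, 60.1 and 42.3 (log2 fold change -1.32, SE 0.28, DESeq2 adjusted p 0.000677), and *Tubb2a*, a beta-tubulin gene, from 842, 829 and 1135 to 507, 489.7 and 313 (log2 fold change -1.10, SE 0.24, DESeq2 adjusted p 0.00171). For neither did the groups overlap. *Tubb2a* was lost without water-Dex replicate 3 (DESeq2 adjusted p 0.0516) or zinc-Dex replicate 1 (0.0634).

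Genes of the circadian clock changed in both directions. In the clock, the activator BMAL1 (gene *Arntl*) pairs with CLOCK or its relative NPAS2 and drives the repressors CRY1 and REV-ERB and the output factor TEF, and the REV-ERB proteins in turn repress *Arntl*. Of 18 clock genes tested of 19 listed, 3 rose and 3 fell, with a median log2 fold change of 0.056. *Arntl* stood at 249.6, 261 and 231 on water and 126, 137 and 43.3 on zinc (log2 fold change -1.28, SE 0.29, DESeq2 adjusted p 0.00206). The water mice were close together, and zinc-Dex replicate 3 was far below the other two zinc mice. *Arntl* was lost in edgeR (adjusted p 0.0622) and in DESeq2 when the 6 Dex libraries were fitted alone (adjusted p 0.222), but not when any 1 Dex library was left out. *Cry1* stood at 102, 109 and 111 and 60.9, 45.6 and 38.5 (log2 fold change -1.16, SE 0.31, DESeq2 adjusted p 0.0218), without overlap. *Npas2*, named after its values were seen, fell from 45.6 ± 22.5 to 13.2 ± 6.03 (log2 fold change -1.80, SE 0.50, DESeq2 adjusted p 0.0282).

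The 3 clock genes that rose were *Tef*, from 619.9, 674 and 641 to 1249, 900.4 and 1431 (log2 fold change 0.89, SE 0.18, DESeq2 adjusted p 0.00031), and the REV-ERB genes *Nr1d1*, from 211, 302 and 193 to 479, 377 and 353 (log2 fold change 0.78, SE 0.19, DESeq2 adjusted p 0.00747), and *Nr1d2*, from 642, 794 and 624 to 1123, 912 and 1229.9 (log2 fold change 0.67, SE 0.14, DESeq2 adjusted p 0.00104). The zinc mice were above the water mice for each of them. *Clock* (1165 ± 86.8 on water, 893 ± 155 on zinc, log2 -0.38, DESeq2 adjusted p 0.123) and *Rora* (1842 ± 180.0 and 1652 ± 49.2, log2 -0.16, DESeq2 adjusted p 0.787) did not pass. The counts were lower under edgeR, where 2 clock genes rose and 0 fell. In DESeq2 the 3 falls became 1 when any single water-Dex replicate or zinc-Dex replicate 3 was left out, and the 3 rises became 5 without zinc-Dex replicate 2. *Cry1* was lost without water-Dex replicates 1, 2 or 3 (DESeq2 adjusted p 0.068, 0.0889 and 0.112) or zinc-Dex replicates 2 or 3 (0.063 and 0.156). *Nr1d1* was lost without water-Dex replicate 1 (0.0816), water-Dex replicate 3 (0.126) or zinc-Dex replicate 1 (0.131), *Npas2* without water-Dex replicate 3 (0.364), beside 4 other left-out libraries for which DESeq2 gave it no adjusted p, and *Tef* went under the fold threshold without zinc-Dex replicate 3 (log2 0.74). The hour of the day at which each mouse was sampled is not given in the sources used here, and its part in these values was not tested.

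Genes of heat shock chaperones had mostly lower levels in zinc-Dex. These proteins keep others folded, and HSP90 holds the GR in its hormone-binding form. Of 13 genes listed, all tested, 0 rose and 2 fell. The log2 fold change was below 0 for 12 of them, against 49.0% of all genes, with a median of -0.17. For 7 the zinc mice lay below the water mice without overlap, against 9.41% of all genes. *Hsph1*, the gene of a large HSP70 cofactor whose heat shock element is printed above, stood at 1093, 805 and 1092 on water and 442, 492 and 517 on zinc (log2 fold change -1.04, SE 0.25, DESeq2 adjusted p 0.00527). *Hsp90aa1*, the gene of the inducible HSP90, stood at 1348, 1089 and 1232 and 659, 671 and 763 (log2 fold change -0.81, SE 0.16, DESeq2 adjusted p 0.000471). Each zinc mouse was below each water mouse for both. *Hspa8*, a constitutive HSP70 gene named after its values were seen, was at 8172 ± 450.0 on water and 6274 ± 693 on zinc and did not pass (log2 -0.38, DESeq2 adjusted p 0.203). The call of *Hsph1* was lost in edgeR (0.0934) and without water-Dex replicates 1 or 3 (DESeq2 adjusted p 0.0555 and 0.291) or zinc-Dex replicates 1, 2 or 3 (0.314, 0.12 and 0.138). *Hsp90aa1* kept its adjusted p but went under the fold threshold without water-Dex replicate 1 (log2 -0.73) or zinc-Dex replicates 1 (log2 -0.77) or 2 (log2 -0.78).

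Cholesterol synthesis leaned upward as a group. All 20 genes listed were tested, 5 rose and 0 fell, and the log2 fold change was above 0 for each of the 20, against 51.0% of all genes tested. The median was 0.45, and for 14 of the 20 the zinc mice were all above the water mice, against 10.3% of all genes. *Lss*, the gene of lanosterol synthase, stood at 860.3, 723 and 811 on water and 1913, 1129 and 1048 on zinc (log2 fold change 0.77, SE 0.20, DESeq2 adjusted p 0.013). *Hmgcs1*, the gene of the HMG-CoA synthase that opens the pathway, stood at 6819.5, 4699 and 5428 and 12411, 8536 and 7025 (log2 fold change 0.72, SE 0.19, DESeq2 adjusted p 0.0222). *Dhcr7* rose from 1510.3 ± 130.0 to 2291 ± 574 (log2 0.60, DESeq2 adjusted p 0.0186) and *Msmo1* from 4531 ± 469 to 7012 ± 1686 (log2 0.63, DESeq2 adjusted p 0.0329), and both encode enzymes that act after lanosterol. *Stard4*, a sterol carrier gene named after its values were seen, was the other gene that rose (log2 0.36, DESeq2 adjusted p 0.0497). In *Lss*, *Hmgcs1*, *Dhcr7* and *Msmo1* zinc-Dex replicate 1 was the highest mouse. None of the 20 genes passed without zinc-Dex replicate 1, where the median was 0.28, or without water-Dex replicate 2, where it was 0.44, and edgeR passed 0, while 3 passed if water-Dex replicate 3 was left out, 8 if zinc-Dex replicate 2 or 3 was, and 17 were higher at an unadjusted p under 0.05 in DESeq2. With water-Dex replicate 3 left out, DESeq2 gave adjusted p of 0.064 for *Lss*, 0.134 for *Hmgcs1*, 0.127 for *Dhcr7* and 0.199 for *Msmo1*. Without zinc-Dex replicate 1 it was 0.206, 0.319, 0.231 and 0.373, and without water-Dex replicate 2 it was 0.107, 0.197, 0.136 and 0.192, in the same order. *Stard4* was also lost without water-Dex replicate 1 (0.291) and zinc-Dex replicate 3 (0.116). With the 6 Dex libraries fitted alone, 6 of the 20 passed, but *Lss* (DESeq2 adjusted p 0.27), *Hmgcs1* (0.336) and *Stard4* (0.123) did not.

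**Figure D3:**
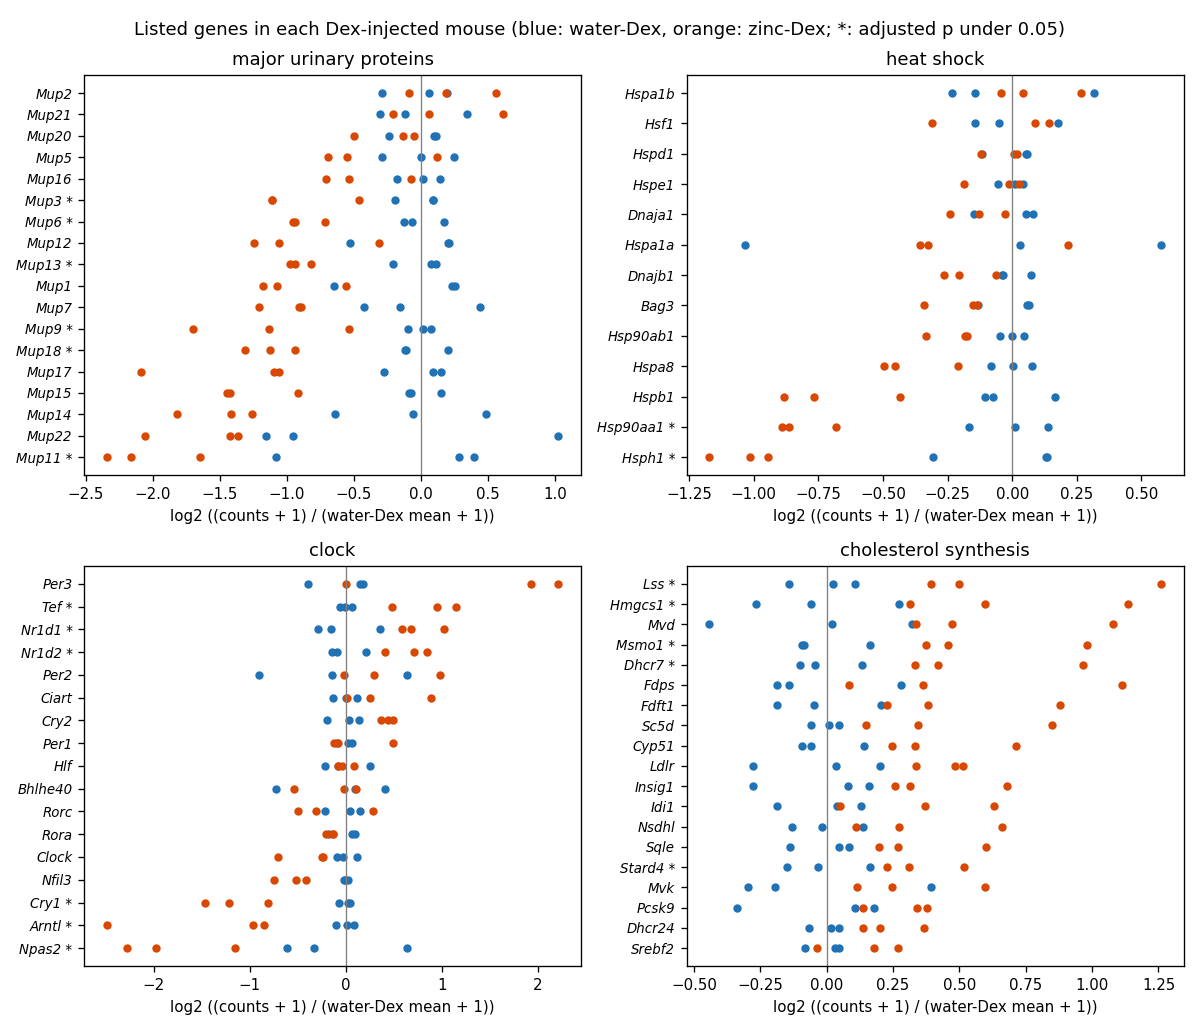
Members of 4 gene lists in each Dex-injected mouse, as log2 of the normalized count plus 1 over the water-Dex mean plus 1, for members with a water-Dex mean of at least 10, except 1 cholesterol gene that is not shown. Blue points are water-Dex mice, orange points zinc-Dex mice, and an asterisk marks genes that rose or fell by the adjusted p. Zinc mice lie left of water mice for many Mup and heat shock genes, on both sides in the clock list, and to the right in cholesterol synthesis, where 1 zinc mouse is often farthest out.

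Other lipid genes were examined by list. *Acacb*, which encodes the acetyl-CoA carboxylase that restrains fatty acid oxidation, rose from 1560.3, 1944 and 1795 to 3523, 2771 and 3070.4 (log2 fold change 0.82, SE 0.18, DESeq2 adjusted p 0.00135) and was the only one of 15 fatty acid synthesis genes past the adjusted p. The zinc mice were all higher. *Cpt1a*, the gate of mitochondrial fatty acid oxidation, rose from 4555, 5389 and 4505 to 5584, 6495 and 7942 (log2 fold change 0.47, SE 0.13, DESeq2 adjusted p 0.0329), the only one of 19 genes of oxidation and ketogenesis. *Acacb* went under the fold threshold without water-Dex replicate 1 (log2 0.74) or zinc-Dex replicate 1 (log2 0.73). *Cpt1a* was lost without water-Dex replicates 1 or 3 (DESeq2 adjusted p 0.182 and 0.24) or zinc-Dex replicates 2 or 3 (0.0524 and 0.271). Of 15 bile acid genes, 0 passed the DESeq2 adjusted p or that of edgeR. However, 8 had an unadjusted p under 0.05, 5 higher and 3 lower, against 10.1% of all genes. Their log2 fold changes ran from -1.87 to 1.06. The zinc mice all lay above the water mice for 6 of the 15 and below them for 0, against 10.3% and 9.41% of all genes.

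Genes switched on by the GR were looked at because both groups carried Dex. Of 21 listed GR targets, 19 were higher in water-Dex than in water-PBS by DESeq2 adjusted p. With zinc under Dex, 0 of the 21 rose or fell in DESeq2 and 0 in edgeR, and 1 had an unadjusted p under 0.05. The median log2 fold change was 0.13. The zinc mice all lay above the water mice for 7 of the 21 targets and below them for 0, against 10.3% and 9.41% of all genes. *Tat*, the gene of tyrosine aminotransferase and the most abundant target, stood at 62557, 64043 and 61590.1 on water and 84172, 69843 and 65106 on zinc (log2 fold change 0.22, SE 0.16, DESeq2 adjusted p 0.734, 95% interval -0.10 to 0.54). *Pck1*, the gene of the gluconeogenic enzyme PEPCK, was at 49124 ± 4594 and 46401 ± 2892 (log2 -0.08, 95% interval -0.94 to 0.78), and *Tdo2*, of tryptophan breakdown, at 35636 ± 518 and 40647 ± 5017 (log2 0.19, 95% interval -0.10 to 0.48). For 13 of the 21 genes the 95% interval of the log2 fold change lay within the fold threshold of 0.8 in both directions. In the 8 others the interval reached past this threshold, and a difference of that size could not be ruled on in this fit. The fit takes the spread of each gene from all 12 libraries. *Pck1*, among the 8, stood at 24199.5, 17108 and 6732 in water-PBS, a wider spread than in its Dex groups. The gene with an unadjusted p under 0.05, named after its value was seen, was *G6pc*, of glucose production, at 1249.9, 2169 and 2077 and 954, 1422 and 841 (log2 fold change -0.77, SE 0.34, DESeq2 adjusted p 0.351).

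Interferon-stimulated and cell death genes, which the study followed in the gut, showed few differences in these livers. Of 35 interferon-stimulated genes, 0 rose and 1 fell, the median log2 fold change was -0.079, and for 32 the 95% interval lay within the fold threshold. The log2 fold change was below 0 for 23 of them, against 49.0% of all genes, and 3 were lower at an unadjusted p under 0.05. The zinc mice all lay below the water mice for 6 and above them for 1, against 9.41% and 10.3% of all genes. The gene that fell was *Bst2*, which encodes the antiviral protein tetherin, at 1504, 1528 and 1551 on water and 1037, 1197 and 1088 on zinc (log2 fold change -0.47, SE 0.09, DESeq2 adjusted p 0.000107). The groups were apart, and the adjusted p stayed under 0.05 in each of the 14 alternative fits. *Irgm1* and *Usp18*, the next most abundant, had log2 fold changes of 0.15 (95% interval -0.03 to 0.33) and -0.01 (-0.33 to 0.31). Of 11 necroptosis genes, 0 passed in DESeq2 and 0 in edgeR, and 1 had an unadjusted p under 0.05. *Cflar*, which restrains caspase-8, was at 1457 ± 69.3 and 1274 ± 77.2 (log2 -0.19, 95% interval -0.48 to 0.09), *Tnfrsf1a*, the gene of the TNF receptor 1, at 666 ± 30.3 and 802 ± 58.6 (log2 0.27, 95% interval 0.06 to 0.47), and *Ripk1* at 422 ± 42.0 and 445 ± 28.6 (log2 0.08, 95% interval -0.13 to 0.28).

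Of 22 genes of NF-κB, IL-1, IL-6 and TNF signalling, 1 rose and 0 fell. It was *Il1rn*, the gene of the interleukin-1 receptor antagonist, at 121, 139 and 114 on water and 239, 269 and 198 on zinc (log2 fold change 0.92, SE 0.26, DESeq2 adjusted p 0.0395). Each zinc mouse was above each water mouse, but the call was lost without any of water-Dex replicates 1, 2 and 3 (DESeq2 adjusted p 0.159, 0.0719 and 0.231) or zinc-Dex replicates 1 and 2 (0.186 and 0.158). Of 16 NRF2 antioxidant genes, *Gsta2* rose and *Gclc* fell. *Gclc*, which encodes the rate-limiting subunit of glutathione synthesis, stood at 2848, 2808 and 2913 and 1942, 1997 and 1739.5 (log2 fold change -0.59, SE 0.11, DESeq2 adjusted p 4.6e-05), with narrow groups far apart, and its adjusted p stayed under 0.05 in each of the 14 alternative fits. Of 13 CAR and PXR targets *Cyp2c55* and *Cyp2c29* rose. *Cyp2c29* went from 17918 ± 1515 to 22348 ± 1647 (log2 fold change 0.32, SE 0.09, DESeq2 adjusted p 0.0243), and its adjusted p was over the threshold without water-Dex replicates 2 or 3 (0.229 and 0.06) or zinc-Dex replicates 1 or 3 (0.231 and 0.172). Of 15 pericentral and Wnt genes *Tnfrsf19* rose. Acute phase (22 tested), gluconeogenesis (10) and ATF4 and ER stress (14) lists had 0 genes past the adjusted p in DESeq2 and in edgeR, with 0, 2 and 2 at an unadjusted p under 0.05.

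**Figure D4:**
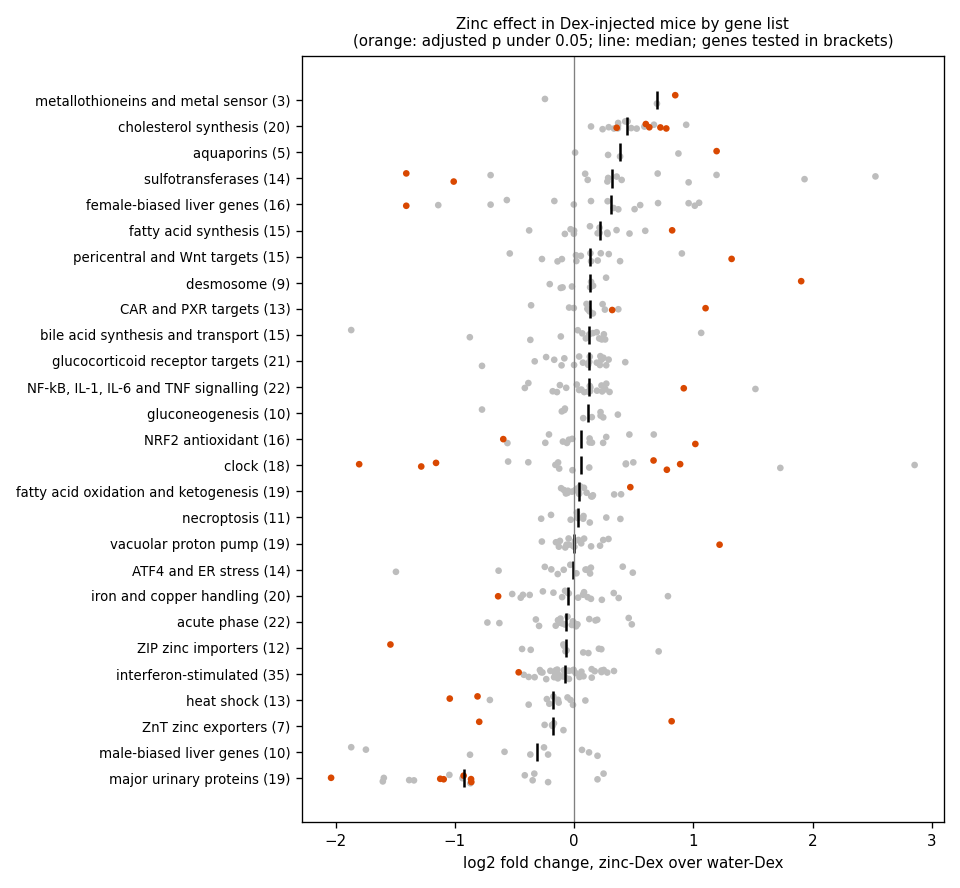
Log2 fold change of zinc-Dex over water-Dex for each tested gene of 27 gene lists, ordered by the list median (black line), with the number of genes tested in brackets. Orange points passed the adjusted p of 0.05 and grey points did not. The Mup list has the lowest median (-0.93) and the metallothionein and cholesterol synthesis lists the highest (0.69 and 0.45), while most other lists are centred near 0.

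The PBS-injected mice allowed the zinc effect to be looked at a second time, since zinc-PBS and water-PBS share no library with the Dex groups. Of the 62 genes called with zinc under Dex, 55 (88.7%) had a log2 fold change of the same sign without Dex, against 60.0% of all genes tested. Of the 62, 5 were also called without Dex in the same direction and 16 had an unadjusted p under 0.05 in that direction, where zinc-PBS against water-PBS called 0.143% of genes and 5.69% had an unadjusted p under 0.05. The effects were smaller, with a median absolute log2 fold change of 0.38 without Dex and 1.07 with it, in genes chosen by their size under Dex. Pearson's r between the log2 fold changes was 0.64 and Spearman's rho 0.68 over the 62 genes, which pool both signs, and 0.24 and 0.26 over all 13255. Within the 38 genes called higher r was 0.081 and rho -0.0023, and within the 24 called lower both were 0.52. These are correlations across genes measured in the same livers, and genes are not independent replicates.

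Genes that went along without Dex included *Dsg1c* (21.1, 38.3 and 56.3 in water-PBS and 98.7, 122 and 71.6 in zinc-PBS, log2 1.34), *Slc43a1* (56.2 ± 17.0 and 112 ± 21.4, DESeq2 adjusted p 0.015) and *Tubb2a* (log2 -1.12), beside *Slc39a4* and *Mt1*. These 5 are the ones called in both. *Tef* (log2 0.72, DESeq2 adjusted p 0.0145) and *Slc30a1* (log2 0.70, DESeq2 adjusted p 4.1e-05) passed the adjusted p without Dex but not the fold threshold. *Adamts2*, *Gsta2* and *Sucnr1* had log2 fold changes of 0.14, -0.07 and -0.02 without Dex and of 1.19, 1.02 and 0.97 with it, but the difference was not called for any of these 3.

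**Figure D5:**
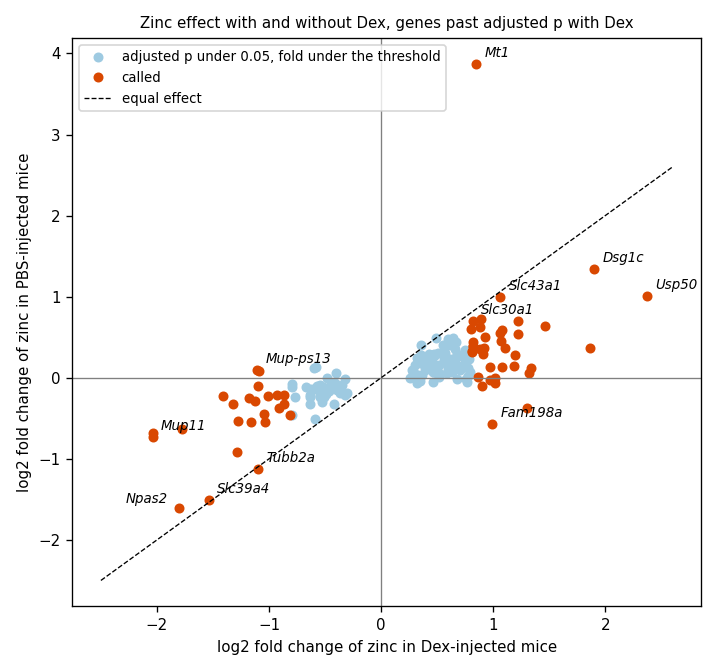
Log2 fold change of zinc in PBS-injected mice against that in Dex-injected mice for the 175 genes past the adjusted p with Dex. Orange points are the 62 called genes, blue points the others, and the dashed line marks an equal effect. Most points lie between the dashed line and the horizontal axis on the same side of 0, and Mt1 lies far above the line.

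The difference of the zinc effect between Dex-injected and PBS-injected mice was called for 6 of 13255 genes (0.0453%), 4 with a lower and 2 with a higher value under Dex. Besides *Mt1* and *Mt2* these were *Mup-ps13*, *Fam198a*, *Slc25a25* and *Phlda1*. *Mup-ps13* was at 1430.1, 1048 and 1313 in water-PBS and 1546, 1350.2 and 1162 in zinc-PBS, which overlap, whereas the Dex groups given above do not. *Slc25a25*, the gene of a mitochondrial carrier, was lower with zinc without Dex (log2 -1.60, DESeq2 adjusted p 1.2e-13), while with Dex it stood at 3042, 3968 and 3732 on water and 2645, 3868 and 3356 on zinc (log2 -0.12, 95% interval -0.49 to 0.25). *Phlda1* was higher with zinc without Dex (log2 1.58, DESeq2 adjusted p 8.1e-07) and stood at 149, 124 and 124 and 126, 129 and 129.8 with it (log2 -0.04, 95% interval -0.56 to 0.47). For both genes the Dex groups overlapped. *Fam198a* had a log2 fold change of -0.57 without Dex, where it did not pass (DESeq2 adjusted p 0.534), and of 0.99 with it. The count of 6 became 3 under edgeR and 23 without zinc-Dex replicate 2, and it was 10 without water-Dex replicate 3 or without any 1 of the zinc-PBS replicates.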

How the data were processed

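RNA of 12 livers was sequenced by the study (stranded TruSeq kit, single-end). The deposited table holds raw read counts per Ensembl gene, which the authors made with hisat 2.0.4 on mm10 and featureCounts, leaving out multimapping reads; the annotation release is not given in the sources used here. Gene names and coordinates came from GENCODE M21. Normalization and Wald tests were done with DESeq2 1.42.0 in R 4.3.3, with 1 fit of the 12 libraries, 1 coefficient per group and 13255 genes that had 10 counts or more in 3 libraries or more (99.9% of counts). P values were adjusted by Benjamini-Hochberg with a threshold of 0.05, and calls also needed a log2 fold change beyond 0.8 in either direction. DESeq2 gave no adjusted p to 776 genes. Replicates differed by 6.21 to 20.8 times counting noise within the Dex groups, so no library was a copy. The series text calls the replicates biological. Alternatives were edgeR 4.0.16, other normalization, filters and libraries, a replicate term, and leaving out each library. The scripts were tested on simulated data.

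The gene lists, members and rules were chosen with earlier results of these data known. The text names the 15 largest changes in each direction among called genes averaging 50 normalized counts or more with groups that did not overlap, metallothionein and sensor genes, up to 4 members of each list past the adjusted p, the 3 most abundant GR, interferon, necroptosis and clock genes, and genes of the called interaction. 1 listed gene is counted with its list but not reported here by itself. An exact permutation test of 1 gene has 0.1 as its smallest p for groups of 3, so single genes rest on the spread shared in the model.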

Additional observations from a re-analysis of the deposited data

Results flagged for a closer look

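The effect of zinc differed between the Dex-injected and the PBS-injected mice for 6 genes by the DESeq2 test of the difference itself, given here as the log2 fold change of zinc with Dex minus that without. It was -3.02 for *Mt1*, -4.68 for *Mt2*, -1.20 for *Mup-ps13*, -1.63 for *Phlda1*, 1.48 for *Slc25a25* and 1.56 for *Fam198a*. The DESeq2 adjusted p was 2.0e-06 for *Mup-ps13*, 0.0173 for *Phlda1*, 9.3e-05 for *Slc25a25* and 0.0405 for *Fam198a*. For *Mt1* and *Mt2* the smaller zinc effect with Dex stood beside water-Dex levels (7556 ± 57.8 and 2397 ± 146) above those of zinc-PBS (5118 ± 1482 and 1171 ± 406). The check of each group's highest and lowest sample by its gap, which needs 4 samples, was not made in these groups of 3.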

How the results depend on the processing

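Against the 62 calls, 38 higher and 24 lower, edgeR made 21 (11 and 10), of which 20 were among the 62, and its count of called differences between the zinc effects was 3 in place of 6. Without the fold threshold there were 175, 115 and 60. Leaving out 1 library at a time gave 26 to 108 calls, 13 to 64 higher and 13 to 44 lower, and 4 to 23 for the difference of the zinc effects. The calls with TMM factors, other filters on low counts, the 6 Dex libraries alone, no independent filtering or no Cook's distance filter numbered 59 to 64. With the 6 Dex libraries alone 52 of the 62 were called again, with the other settings of this group 58 to 62, and with 1 library left out 20 to 49. The cause of these shifts was not tested, but leaving out a library also removes replication. With the replicate number as a block the counts were 53 (41 of them among the 62), 34 and 19, and 7 for the difference. Same-numbered water-Dex and zinc-Dex mice correlated in their deviations from the group mean with r = 0.059, 0.19 and 0.062 over 9575 genes. Between different numbers r was -0.077, 0.020, -0.12, -0.080, 0.063 and -0.12. The 0.063, of water-Dex replicate 3 with zinc-Dex replicate 1, was slightly above the value for its own number. Deviations from a mean of 3 mice depend on each other, so these values cannot settle whether the numbers mark pairs. The main fit did not take them as pairs.

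Over the named genes and alternatives, 779 values kept direction and side of the threshold, 105 lost the threshold, 26 reached it and 5 changed sign. Those 5 lay near 0: with 1 library left out the log2 fold change of *Usp18* ran from -0.16 to 0.14 (0.14 without replicate 3 of water-Dex, and 0.082 and 0.034 without replicates 2 and 3 of zinc-Dex), that of *Slc25a25* from -0.26 to 0.013 (the latter without zinc-Dex replicate 1) and that of *Phlda1* from -0.092 to 0.050 (the latter without water-Dex replicate 1). Depth limits genes of low count, and 199 tested genes had under 10 counts in every Dex library.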

Other observations

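Some changes lay outside the rule for named genes and were picked after their values were seen. They form no list fixed for testing, and no count over a group belongs to them. Of the genes of HSP90 cofactors, *Ahsa1*, which stimulates the ATPase of HSP90, stood at 851, 865 and 835 on plain water and 623, 592 and 658 on zinc (log2 fold change -0.45, SE 0.11, DESeq2 adjusted p 0.0102). *Stip1*, which links HSP70 to HSP90, stood at 879.6, 779 and 789 and 589, 551 and 599 (log2 fold change -0.49, SE 0.13, DESeq2 adjusted p 0.0255), and *Chordc1* at 863, 809.9 and 959 and 598, 577 and 623 (log2 fold change -0.55, SE 0.15, DESeq2 adjusted p 0.0218). The groups did not overlap for these 3 genes, but each missed the adjusted p in edgeR (0.0644, 0.0934 and 0.0934). In DESeq2 each also missed it without single libraries, *Stip1* without any one of the 6 (adjusted p 0.182, 0.0661 and 0.0904 for the water-Dex and 0.107, 0.0912 and 0.0664 for the zinc-Dex replicates). *Ahsa1* missed it without water-Dex replicates 1, 2 or 3 (0.068, 0.0857 and 0.0615) or zinc-Dex replicates 1 or 2 (0.0791 and 0.0616), and *Chordc1* without water-Dex replicates 1 or 3 (0.0816 and 0.212) or zinc-Dex replicates 1, 2 or 3 (0.108, 0.0721 and 0.0563).

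Single genes of sterol handling were picked in the same way. *Abcg5* and *Abcg8*, whose products pair to export sterols into bile, both rose. *Abcg5* stood at 895, 1028 and 974 on water and 1495, 1224 and 1750.1 on zinc (log2 fold change 0.63, SE 0.14, DESeq2 adjusted p 0.00338), and *Abcg8* at 1152, 1536 and 1389 and 2454, 1906 and 2487 (log2 fold change 0.75, SE 0.18, DESeq2 adjusted p 0.0044). *Npc1*, which moves cholesterol out of lysosomes, stood at 843, 1152 and 934 and 1554, 1444 and 1623 (log2 fold change 0.66, SE 0.15, DESeq2 adjusted p 0.00207). *Hsd17b7*, an enzyme gene of the later steps of cholesterol synthesis that was not on the list, rose from 1746, 1744 and 1863 to 2958, 2604 and 2317 (log2 fold change 0.56, SE 0.12, DESeq2 adjusted p 0.00104). The zinc mice were above the water mice for each of these 4 genes, and *Hsd17b7* kept an adjusted p under 0.05 without each Dex library in turn and under edgeR. *Abcg5* missed it without water-Dex replicate 1 (0.0527) or zinc-Dex replicate 3 (0.0616) and *Abcg8* without water-Dex replicate 1 (0.068). Under edgeR the values were 0.0614 for *Abcg5*, 0.0746 for *Abcg8* and 0.0584 for *Npc1*.

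Among genes of low count, *Usp50*, a deubiquitinase gene, had the largest increase of all called genes, from 7.10, 8.50 and 8.91 on plain water to 68.5, 21.1 and 37.5 on zinc (log2 fold change 2.38, SE 0.50, DESeq2 adjusted p 0.00089). The groups did not overlap, although zinc-Dex replicate 1 was far above the other two. DESeq2 gave the gene no adjusted p without any one of the Dex libraries other than zinc-Dex replicate 2, and the log2 fold change then ran from 1.85 (without zinc-Dex replicate 1) to 2.46.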
